A study of Rattus norvegicus with 2 samples.

Results

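Circular RNAs (circRNAs) made from genes of the actin and membrane cytoskeleton were examined in the lung of rats with LPS-induced acute lung injury (ALI) and of Sham rats. The host genes were picked by their names, from a list of myosins, spectrins, ankyrins, dystrophins, integrin-linked adaptors, actin crosslinkers and cell junction scaffolds, and the list was drawn up with earlier results of these data known. It found 97 of the 4734 back-splice junctions in the table, which belong to 45 of its 2483 host genes. Of the 30 genes it spells out in full, 20 were found under that name and 10 were not (Add1, Add2, Afdn, Cald1, Flnc, Palld, Svil, Tln2, Tns2 and Vcl). The other 25 hosts were found by the beginning of their name. Genes named in the table by an older symbol were not matched. By the synonyms of the GRCr8 gene table these were Mllt4 (now Afdn) with 2 LPS reads, Epb4.1 (now Epb41) with 11 Sham and 3 LPS reads and Epb4.1l5 (now Epb41l5) with 6 Sham reads. Of the 97 rows, 6 name small RNA families before the cytoskeleton gene, and all 45 names were found on the same chromosome in the GRCr8 gene table.

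The Sham group was SD rats given PBS through an intratracheal spray, and the LPS group was SD rats given LPS at 2 mg/kg by the same route. Lungs were taken 24 h later, from 12 rats in all over both groups. CircRNA was sequenced from 1 Sham library and 1 LPS library, the sources do not say how many rats each holds, and there is therefore no replicate error and no test between the conditions. The tissue is whole lung, in which fewer cells of a type and less RNA per cell cannot be told apart. Of lung markers, 4 of 7 endothelial genes were in the rows and differed in direction, Flt1 with 67 Sham and 165 LPS reads, Tek with 18 and 2, Ptprm with 13 and 8 and Ptprb with 0 and 4. Of 7 fibroblast genes 3 were in the rows and also differed, Col3a1 with 70 and 2 reads, Npnt with 11 and 57 and Pdgfra with 0 and 2. Rtkn2 of alveolar type 1 cells had 53 and 112 reads, and Sftpc and Abca3 of type 2 cells 5 and 0 and 0 and 3. The part of these cell types in the values that follow was not tested. None of 6 heart muscle or 6 ciliated cell markers was in the rows.

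A circRNA forms when the spliceosome joins the end of a downstream exon back to the start of an upstream one, and the read across that back-splice junction is what identifies it. Long genes with many exons offer many such pairs, and the genes of the cytoskeleton include some of the longest in the genome. Their proteins form the actin cortex under the plasma membrane, the anchors that tie integrins and cell junctions to actin, and the motors that pull on them. In the lung this system holds the endothelial and epithelial barriers together and drives the crawling of leukocytes.

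The deposited values are junction reads scaled to a common total in each library (counts per 1000000, CPM), at depths of 38112 junction reads in Sham and 52505 in LPS. One read was thus worth 26.2 CPM in Sham and 19.0 in LPS. No junction is listed with 1 read, and a junction at 0 or 1 read appears as a fill-in. The fill-in limit used here is the upper 95% Poisson limit for 1 read. It is 4.74 reads (124 CPM in Sham and 90.4 CPM in LPS). Folds against this limit use the listed value without its own counting error. Because a junction read has no length term, values can be set side by side between circRNAs, but the sum over a host also depends on how many junctions it has. Differences are given as log2 folds with 0.5 reads added to each library, and a host or junction counted as higher or lower at 2-fold or more with at least 10 reads over both libraries. Wilson 95% intervals of a value and exact 95% intervals of a ratio cover counting error only. Scaling to the median of the 1757 junctions listed in both libraries shifts every log2 fold up by 0.46, and scaling to the 323 of these with at least 50 reads shifts it down by 0.44.

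The cytoskeleton circRNAs held a similar, small share of both libraries. They took 369 of the Sham reads, 0.968% (95% interval 0.875 to 1.07), and 466 of the LPS reads, 0.888% (0.811 to 0.971), and the intervals overlap. Of the 45 hosts, 21 had at least 10 reads, of which 6 were higher in LPS by 2-fold or more (Pdlim5, Smtnl2, Utrn, Ank3, Ankrd44 and Macf1). Pdlim5 passes 2-fold through the 0.5 reads added, since its Sham value is a fill-in. Among all 1195 host genes with at least 10 reads, 24.6% were higher, against 28.6% of the cytoskeleton hosts. Another 5 were at least 2-fold lower (Magi3, Pdlim2, Sptbn1, Flna and Sptan1), 23.8%, where 26.8% of all hosts were lower. The remaining 10 lay within 2-fold. Both shares are near those of the whole table. With the scale of junctions of at least 50 reads 8 hosts were lower, and with that of all shared junctions 3. These scales shift every host in the table alike, and the shares of all hosts on them were not computed. The median log2 fold of the 21 hosts was 0.33 (quartiles -0.85 and 1.01), and that of all hosts was -0.13 (-1.09 and 0.98). With the scale of junctions of at least 50 reads the cytoskeleton median changed sign to -0.11, and the median of all hosts moves down by the same shift.

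**Figure D1:**
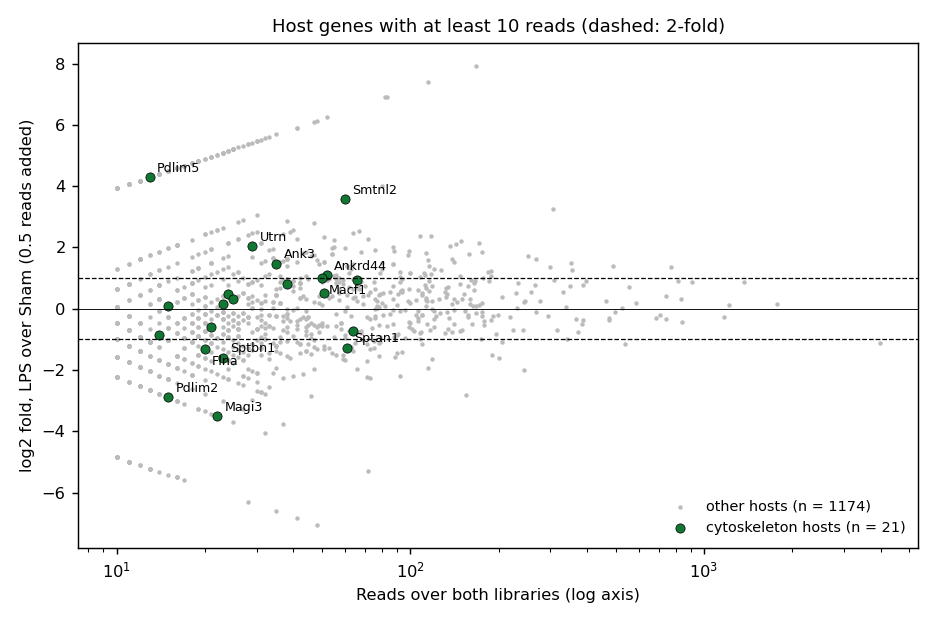
Log2 fold of LPS over Sham for each host gene with at least 10 reads, against the reads of the host over both libraries on a log axis, with the 21 cytoskeleton hosts in green and all other hosts in grey. The cytoskeleton hosts run from Magi3 at -3.50 to Pdlim5 at 4.29, inside the range of the other hosts, and 11 of them lie beyond the dashed 2-fold lines.

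Below 10 reads lay 24 hosts, and most of these were listed in Sham alone. In all, 18 of the 45 hosts had Sham reads only, none of them with more than 9 reads, and 3 had LPS reads only (Pdlim5 with 13 reads, Ankrd17 with 3 and Magi2 with 2). As shares these are 40.0% and 6.67% of the cytoskeleton hosts, beside 24.2% and 23.6% of all hosts. By junction, 46 of 97 (47.4%) were listed in Sham only, where the table as a whole has 32.4%, and 24 (24.7%) in LPS only, where it has 30.5%. The Sham-only junctions had a median of 3 reads and a highest of 9. The LPS-only junctions had a median of 4 reads, but 6 of them had at least 10. No test of these shares was made.

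The myosins, the motors that move along actin, were at similar levels in both libraries. With the myosin kinase gene Mylk counted among them, the 9 hosts of this group held 71 Sham and 107 LPS reads. The ratio in CPM was 1.09 (0.803 to 1.50) and turns to 0.804 with the scale of junctions of at least 50 reads. Of the 3 with at least 10 reads, none was 2-fold different. Myo9a, a myosin that carries a domain that inactivates small GTPases, had 18 Sham and 48 LPS reads, or 472 CPM (299 to 746) and 914 CPM (689.6 to 1212). This is 1.94-fold higher in LPS (1.11 to 3.54), short of 2-fold, and past it at a log2 fold of 1.39 with the scale of all shared junctions. Its 5 junctions each had at least as many LPS as Sham reads, led by chromosome 8, 64712695 to 64734479, with 11 and 29. The LPS library is the deeper, and in CPM the junction with 5 and 7 reads was near equal, at 131 and 133.

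Myo1f, a class I myosin of leukocytes, had 17 Sham and 34 LPS reads, or 446 CPM (279 to 714) and 648 CPM (463 to 905). Its ratio of 1.45 had an interval from 0.789 to 2.77 that includes equal levels. Nearly all of it was 1 short junction (chromosome 7, 18469353 to 18469632), which spans 280 nt and had 15 and 32 reads. Beside it, the myeloid markers Csf3r, Itgam, Adgre1 and Mrc1 summed to 2 Sham reads (52.5 CPM) and 35 LPS reads (667 CPM), 25 of the latter from Csf3r, the receptor for the growth factor of neutrophils. The other 4 of the 8 markers on that list (Ptprc, Csf1r, Marco and S100a8) have no junction in the rows, and the part of these cells in the Myo1f value was not tested. Myo18a had 8 and 16 reads, a ratio of 1.45 (0.586 to 3.92). The junction between 65025196 and 65026738 on chromosome 10 gave 3 and 16 of these, whereas the second had 5 Sham reads and none in LPS. The other 6 hosts of this group, Mylk among them, had fewer than 10 reads. Mylk, the kinase that switches on myosin contraction, had 2 Sham and 7 LPS reads. Myh14, Myo1d, Myo16 and Myo9b were listed in Sham only with 7, 6, 3 and 3 reads.

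The membrane skeleton, the net of spectrin held to the membrane by ankyrins, adducins and protein 4.1 relatives, was lower in LPS when summed. The 7 hosts found by name had 86 Sham and 71 LPS reads, a ratio of 0.599 (0.431 to 0.830), which was 0.826 with the scale of all shared junctions. With Epb4.1 and Epb4.1l5, protein 4.1 and a relative, added under their older symbols the ratio was 0.522 (0.382 to 0.710). Within the group the spectrins Sptan1 and Sptbn1 were lower in LPS, and of the ankyrins only Ank3 was higher. Sptan1, the alpha chain of the spectrin found outside red cells, had 39 Sham and 22 LPS reads, or 1023 CPM (749 to 1398) and 419 CPM (277 to 634), and was 2.44-fold lower (1.41 to 4.32). It had the largest Sham value of the 45 hosts. All 6 of its junctions but 1 had more Sham than LPS reads, among them chromosome 3, 8547346 to 8547585, with 16 and 11 and 8548854 to 8553003 with 10 and 3. Sptbn1, the partner beta chain, had 16 and 7 reads, or 419.8 CPM (258 to 682) and 133 CPM (64.6 to 275), a value 3.15-fold lower (1.23 to 9.05). The row of its junction with 7 reads in each library also names small RNA families, and without that row the log2 fold of Sptbn1 was -4.71, against -1.60 with it. With the scale of all shared junctions Sptan1 was at -0.81, short of 2-fold, and Sptbn1 stayed past it at -1.14.

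Ank3, ankyrin-G, which gathers channels and adhesion proteins at membrane domains, went the other way. It had 7 Sham and 28 LPS reads, or 184 CPM (89.0 to 379) and 533 CPM (369 to 771), and was 2.90-fold higher in LPS (1.24 to 7.87). Ank2 and Ank1 were listed in Sham only, with 7 and 6 reads. The 2 Ank1 junctions share an end and start 2 bases apart (chromosome 16, 73773577 and 73773579 to 73775441). Add3, a protein that caps actin and recruits spectrin to it, had 9 and 14 reads, a ratio of 1.13 (0.455 to 2.96), and its log2 fold of 0.15 changes sign with the scale of junctions of at least 50 reads. Epb41l4a had 2 Sham reads.

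Utrophin and dystrophin link actin to the receptor dystroglycan in the membrane. Utrn had 4 Sham and 25 LPS reads, or 105 CPM (40.8 to 269.9) and 476 CPM (323 to 703), and was 4.54-fold higher in LPS (1.57 to 17.9). Dmd had 3 Sham reads and was at the fill-in in LPS. The spectraplakins, giant proteins that tie actin to microtubules and intermediate filaments, were led by Macf1 with 13 Sham and 37 LPS reads. In CPM these are 341 (199 to 584) and 705 (511 to 971), 2.07-fold higher in LPS (1.07 to 4.24), with a log2 fold of 1.01 that is 0.57 with the scale of junctions of at least 50 reads. The higher value rested on 1 junction (chromosome 5, 141229716 to 141237446) with 3 and 25 reads, whose row also names small RNA families. Without that row the log2 fold of Macf1 was -0.21. Dst had 3 Sham reads at one junction and 2 LPS reads at another, and the intermediate filament gene Synm had 2 Sham reads.

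**Figure D2:**
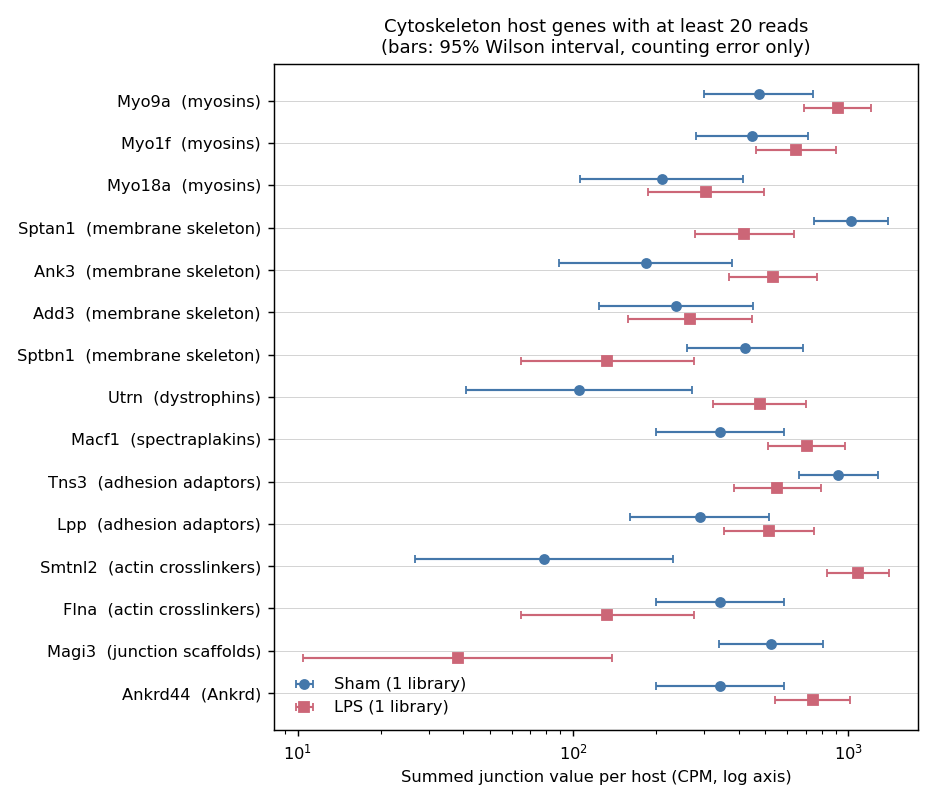
Summed junction value in CPM on a log axis for 15 cytoskeleton hosts with at least 20 reads, grouped by role, with Sham as blue circles and LPS as red squares and bars for the 95% Wilson interval of counting error. The Sham and LPS bars are apart for Smtnl2, Utrn, Sptan1 and Magi3, and overlap for the other 11 hosts.

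The adaptors that link integrins and junctions to actin showed no common direction. Their 10 hosts held 93 Sham and 102 LPS reads, a ratio of 0.796 (0.595 to 1.07) that turns to 1.10 with the scale of all shared junctions. Of the 7 with at least 10 reads, 1 was higher, 1 was lower and 5 lay within 2-fold. The 2 that differed are of the same family, which pairs a PDZ domain with LIM domains. Pdlim5 was at the fill-in in Sham and had 13 LPS reads, 248 CPM (145 to 424), from a single junction (chromosome 2, 247883196 to 247894081). Its LPS value was 1.99-fold the Sham fill-in limit, without its own counting error. Pdlim2, known both as an actin adaptor and as a factor that limits NF-kB, had 13 Sham and 2 LPS reads, or 341 CPM (199 to 584) and 38.1 CPM (10.4 to 139), and was 8.95-fold lower (2.03 to 81.7).

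Tns3, a tensin that binds the tails of integrins, had more reads than any other adaptor, 35 in Sham and 29 in LPS, or 918 CPM (660.4 to 1277) and 552 CPM (385 to 793). Its ratio of 0.601 (0.355 to 1.01) was within 2-fold, and its log2 fold was -1.17 with the scale of junctions of at least 50 reads. Its junctions differed in direction. The one between 88724076 and 88725530 on chromosome 14 had 21 Sham and 7 LPS reads, a ratio of 0.242 (0.0869 to 0.591), and the one between 88761036 and 88775039 had 8 and 15, a ratio of 1.36 (0.542 to 3.71). Lpp, a LIM protein of focal adhesions, had 11 and 27 reads, a ratio of 1.78 (0.855 to 3.98). Tns1 had 6 and 9 reads and Limch1 8 and 6, and both intervals include equal levels. Fermt2, Lmo7 and Tln1, the last of which is the talin that activates integrins, were listed in Sham only with 5, 4 and 2 reads.

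Among proteins that bind or crosslink actin filaments, Smtnl2, a relative of the smooth muscle protein smoothelin and a gene in the primer table of the study, had 3 Sham and 57 LPS reads at its single junction (chromosome 10, 58961407 to 58965487). Its ratio of 13.8 had an interval from 4.49 to 68.9. No other cytoskeleton junction had as many LPS reads. Flna, the filamin that crosslinks the cortical network, had 13 and 7 reads, or 341 CPM (199 to 584) and 133 CPM (64.6 to 275), a value 2.56-fold lower with an interval (0.949 to 7.57) that includes equal levels. With the scale of all shared junctions the log2 fold of Flna was -0.85, short of 2-fold. Both Flna junctions are short and both were lower in LPS, 1 of 161 nt with 6 and 2 reads (chromosome X, 156475671 to 156475831) and 1 of 204 nt with 7 and 5 (chromosome X, 156485915 to 156486118). Actn4 had 3 Sham reads. Of 8 smooth muscle markers, Myocd with 6 LPS reads was the only one in the rows, so the part of smooth muscle cells in the Smtnl2 value was not tested.

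The scaffolds of tight junctions and cell polarity were lower in LPS when summed. Their 5 hosts had 48 Sham and 14 LPS reads, with fill-ins summed as 0. The ratio was 0.212 (0.108 to 0.390), and 0.292 with the scale of all shared junctions. Magi3, which holds receptors and phosphatases at junctions, had 20 Sham and 2 LPS reads, or 525 CPM (339.7 to 810.5) and 38.1 CPM (10.4 to 139), and was 13.8-fold lower (3.35 to 122). That fold takes its 4 junctions at the LPS fill-in as 0. With the fill-in as 1 read the log2 fold of Magi3 was -2.12, against -3.50. Each of its 5 junctions had more Sham than LPS reads, led by chromosome 2, 206563072 to 206570833, with 9 and 2. Pard3, the polarity protein, had 9 Sham reads over 2 junctions and none in LPS, and Magi1 had 8 Sham reads and none in LPS. Magi2 had 2 LPS reads. Of the 2 scaffolds with at least 10 reads, 1 was lower and 1 lay within 2-fold.

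Ankyrin repeat (Ankrd) proteins share a binding fold with the ankyrins but mostly act outside the cytoskeleton. Ankrd44, a subunit of a protein phosphatase complex, had 13 Sham and 39 LPS reads, or 341 CPM (199 to 584) and 743 CPM (543 to 1015), and was 2.18-fold higher in LPS (1.14 to 4.45), with a log2 fold of 1.09 that is 0.64 with the scale of junctions of at least 50 reads. Ankrd12, Ankrd16 and Ankrd33b had 5, 4 and 3 Sham reads, and Ankrd17 had 3 LPS reads.

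In the hosts higher in LPS, 1 junction held most of the LPS reads. Of these 6 hosts, Smtnl2 and Pdlim5 have 1 junction each, and the other 4 have 4 to 6. For Utrn, 22 of the 25 LPS reads lay on chromosome 1 between 6575079 and 6601608, a junction at the Sham fill-in, and the other 3 junctions had 4 Sham and 3 LPS reads. For Ank3, 20 of 28 LPS reads came from chromosome 20, 20259263 to 20303087, also at the Sham fill-in, and the other 5 junctions had 7 and 8 reads. Ankrd44 had 21 LPS reads and none in Sham between 61312543 and 61318404 on chromosome 9, and its other 4 junctions had 13 and 18 reads, 341 and 343 CPM. In Macf1 25 of 37 LPS reads came from its most-read junction, and the other 3 junctions had 10 Sham and 12 LPS reads. Among the hosts lower in LPS, each junction of Magi3, Pdlim2 and Flna had more Sham than LPS reads. Sptan1 had 1 junction with LPS reads only (0 and 2), and Sptbn1 had 9 Sham reads and none in LPS at one junction and 7 reads in each library at the other.

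Counted one by one, 27 of the 97 junctions had at least 10 reads. Of that number, 10 (37.0%) were higher in LPS by 2-fold or more, where 29.1% of all junctions with as many reads were higher, and 4 (14.8%) were at least 2-fold lower, where 29.6% were. With the scale of junctions of at least 50 reads, 9 of the 27 were lower. The share of all junctions on that scale was not computed, so this count has no counterpart in the 29.6%. The 4 lower ones were Tns3 (21 and 7 reads), Sptan1 (10 and 3), Magi3 (9 and 2) and Pdlim2 (9 and 2). The highest reads at the Sham fill-in belonged to Lpp (chromosome 11, 79309778 to 79399831) with 23 LPS reads, or 438 CPM (292 to 657). This is 3.52-fold the fill-in limit, without its own counting error. Utrn with 22 and Ankrd44 with 21 LPS reads followed, at 3.37-fold and 3.21-fold the limit. In the other direction no cytoskeleton junction at the LPS fill-in had 10 reads, where 74 of the 1533 in the whole table did. Lpp (chromosome 11, 79361488 to 79399831) and Sptbn1 (chromosome 14, 114582964 to 114649217) had 9 Sham reads each, 2.61-fold the LPS fill-in limit, and Magi1 (chromosome 4, 125762257 to 125789911) had 8.

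**Figure D3:**
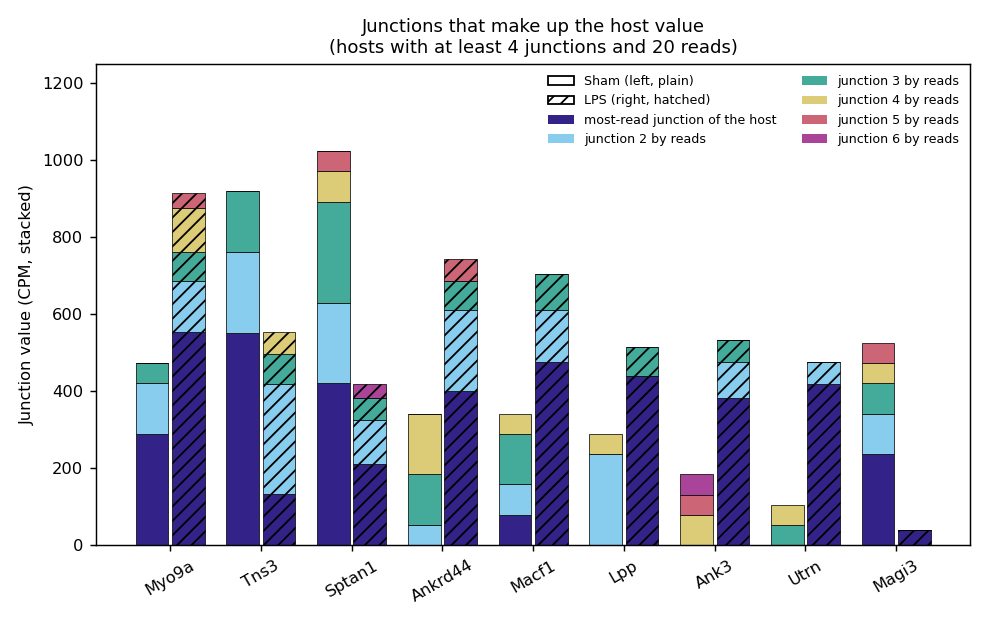
Junction values in CPM stacked for 9 cytoskeleton hosts with at least 4 junctions and 20 reads, with the Sham library as the left, plain bar and the LPS library as the right, hatched bar, and 1 colour for each junction in order of reads. The most-read junction (dark blue) is absent from the Sham bar of Ankrd44, Lpp, Ank3 and Utrn and is the largest piece of the LPS bar in each of these, as in Utrn with 22 of 25 reads.

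Junctions of 1 host often used a common splice position with different partners. Of the 45 hosts, 21 had at least 2 junctions (46.7%, where 36.9% of all hosts did), and in 12 hosts 2 or 3 junctions shared an exact start or end. Over all rows, 32 of the 97 cytoskeleton junctions (33.0%) shared an end with another junction, beside 37.4% of the whole table. At 6 of the 16 shared positions, 1 junction was listed in Sham only and another in LPS only, 37.5%, where 17.8% of all 839 shared positions in the table were of this kind. At the Lpp position 79399831, the partner was 79309778 in LPS, with 23 reads and none in Sham, and 79361488 in Sham, with 9 reads and none in LPS. At the Tns1 position 81275269 on chromosome 9, the junction spanning 16890 nt of the genome had 6 Sham reads. The junction spanning 1900 nt had 5 LPS reads.

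Other shared positions were listed in both libraries. From the Ankrd44 start at 61312543, the circle ending at 61324138 had 5 Sham and 4 LPS reads, while those ending at 61318404 and 61331978 had 21 and 3 LPS reads and none in Sham. From the Myo9a start at 64635064, junctions spanning 2618, 9291 and 13440 nt had 0 and 2, 5 and 7, and 2 and 4 Sham and LPS reads. At the Sptbn1 end 114649217, the junction spanning 6143 nt had 7 reads in each library and that spanning 66254 nt had 9 Sham reads only. Among hosts with at least 2 junctions, 10 of the 21 cytoskeleton hosts had 1 junction listed in Sham only and another in LPS only, 47.6%, and 33.7% of all such hosts had. At least 20 reads were held by 14 of the 21, of which 6 (42.9%) had this pattern, beside 30.7% of all such hosts. Most of these junctions had fewer than 10 reads.

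In 7 of the 21 hosts, 1 circle ended where the next began, with an overlap of 32 to 147 bases between the end of the first and the start of the second. An overlap of at most 200 bases was found in 112 of all 917 hosts with at least 2 junctions (12.2%). This limit was set after the pairs had been seen. In Macf1 the circle from 141215063 to 141229777, with 5 reads in each library, overlapped by 62 bases the circle with 3 Sham and 25 LPS reads. In Pard3 both circles of the pair, with 4 and 5 reads, were listed in Sham only (chromosome 19, 60370736 to 60415963 and 60415853 to 60429996). The pair in Dst (chromosome 9, 37908743 to 37911079 and 37910962 to 37923009) had 3 Sham reads in the first circle and 2 LPS reads in the second. Exon positions in this build were not used here, so whether an overlap is a shared exon was not tested.

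The span between junction ends, which includes introns, had a median of 6143 nt in the cytoskeleton junctions (quartiles 1712 and 14144) and 4394 nt in the whole table. At most 500 nt were spanned by 12 of 97 (12.4%), beside 12.5% of all, and at least 25000 nt by 14 (14.4%), beside 11.1%. The longest was the Lpp junction of 90054 nt listed in LPS, and the shortest were Myh14 (chromosome 1, 100624086 to 100624232) and a Sptan1 junction (chromosome 3, 8598257 to 8598403), both of 147 nt and listed in Sham. Junctions listed in both libraries had a median span of 3997 nt, those in LPS only 9441 nt and those in Sham only 6640.5 nt. None of the 27 junctions listed in both spanned more than 21785 nt (Myo9a).

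**Figure D4:**
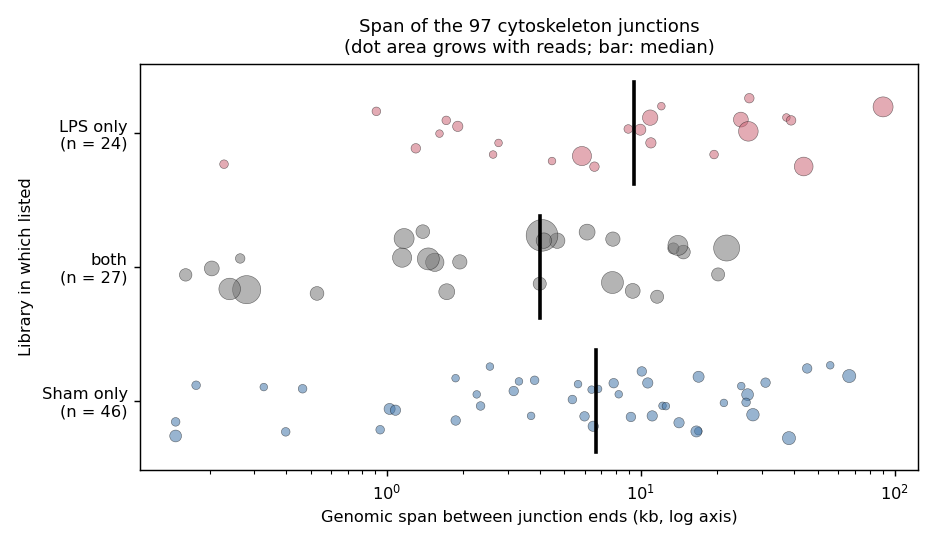
Genomic span in kb on a log axis of the 97 cytoskeleton junctions, split by the library in which they are listed, with dot area growing with reads, a vertical bar at the median and vertical jitter without meaning. The 14 junctions of at least 25000 nt are all listed in 1 library only, 6 in LPS and 8 in Sham, as are 66.9% of all 525 junctions of that span.

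Regulators of the same system were taken from a list of regulators and effectors of small GTPases, formins, WAVE and Arp2/3 genes and their partners, none of which is among the 45 hosts. It found 60 hosts with 142 junctions, and at 1159 Sham and 1804 LPS reads it held more than the cytoskeleton genes themselves. The most-read regulators were Arhgap10 with 228 Sham and 358 LPS reads, Dock4 with 171 and 145, and Arhgef12 with 85 and 223. Next came Prex2 with 181 and 62, and Dock6 with 168 LPS reads and a fill-in in Sham. Of the 36 regulators with at least 10 reads, 11 (30.6%) were higher, 10 (27.8%) were lower and 15 lay within 2-fold, with a median log2 fold of -0.11, beside 0.33 for the cytoskeleton hosts. Ssh2, a phosphatase that activates cofilin, had 7 and 60 reads, Nckap1, a subunit of the WAVE complex, had 2 and 24, and Cyfip1, another subunit, had 8 and 4. Diaph1, a formin, had 5 and 18, and Fhod1, another formin, had 17 and 2. Ptk2, the focal adhesion kinase, had 14 and 42. Iqgap1, a scaffold that crosslinks actin, had 13 and 8. With fewer than 10 reads, the kinases Rock1 and Limk2 were listed in Sham only, with 9 and 7 reads.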

How the data were processed

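CircRNA of rat lung was sequenced in 1 Sham and 1 LPS library. Per the labels, ribosomal RNA was removed, linear RNA was digested with RNase R and strand-marked libraries were made, whereas the methods describe a SmartPCR cDNA kit. The submitters' processing notes name CASAVA 1.8, BWA and the build rn6, and coordinates are given as deposited. The circRNA caller is not given in the sources used here. The authors deposited 1 value per junction and library, headed TPM, which by its steps is CPM without a length term, with 0.001 for absent junctions. Columns were assigned by their names.

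Reads were derived from the size of the lowest steps, with a largest deviation of 5.4e-05 reads from a whole number. They were used for depth, intervals, the 0.5 reads added and the minimum of 10 reads. No count test was run, because the values are CPM and each group has 1 library. A host is the matched name or, in other rows, the last name that is not a small RNA family, and 395 rows with no such name belong to no host. Fill-ins entered host sums as 0.

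The hosts and lists were chosen with earlier results of these data known. Described in full were hosts with at least 20 reads, the 4 largest folds in each direction among hosts with at least 10 reads, the 3 most-read junctions of each library listed there only, and Smtnl2. Some hosts that this rule names, or that have fewer reads, are counted in the totals but not reported here. The regulator genes named were chosen after their values were seen. Alternatives were a pseudocount of 1 read, 2 other scales, the fill-in as 1 read, single host names, other read minimums, 4-fold, no Ankrd hosts, no most-read junction and, added after seeing the data, older gene symbols. Steps were tested on simulated data. Intervals were made with scipy 1.17.1, tables with pandas 2.3.3 and numpy 2.4.6 and figures with matplotlib 3.10.9, under Python 3.11.15.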

Additional observations from a re-analysis of the deposited data

How the results depend on the processing

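No paired analysis was possible because there is 1 library for each condition, and no replicate could be left out. Of 122 log2 folds of the 21 hosts under the alternatives, 109 stayed within the counting interval of the reported value, 8 moved beyond it and 5 changed sign after having passed 2-fold. The sign changes were Macf1 at -0.21 with single host names, and Ank3 at -0.28, Ankrd44 at -0.0076, Macf1 at -0.21 and Utrn at -0.82 without the most-read junction, where fewer junctions enter by construction, and those left out are chosen by their reads, so that this setting is no check of the host values. That setting left 0 hosts higher and a median log2 fold of -0.89. With the scale of all shared junctions 3 hosts were lower and the median was 0.80, and with that of junctions of at least 50 reads 8 hosts and 9 junctions were lower and the median was -0.11, each by the shift of the scale. With the fill-in as 1 read the median was 0.22, and the cause was not tested. Without a read minimum 24 hosts and 52 junctions were lower, 29 junctions were higher and the median was -1.31. In that setting each junction listed in 1 library only counts as higher or lower, however few its reads. With at least 20 reads 6 junctions were higher, 1 was lower and the median was 0.49. At 4-fold 3 hosts were higher and 2 lower. Without the Ankrd hosts the LPS share was 0.808%. With the genes under older symbols included, an alternative chosen after seeing the data, 6 hosts were higher, 6 were lower and the median was 0.24. The other counts stayed within 1.5 times of those reported. The shares of all hosts and junctions were not computed under the alternatives, so these counts cannot be set against the whole table. Depth limits most values, as 70 of the 97 junctions and 24 of the 45 hosts had fewer than 10 reads.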
